A study of Homo sapiens with 18 samples.

Results

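The data compare how MM1R and MM1S myeloma cells changed when they were given Fer-1 before RSL3. For each gene, the change from untreated to Fer-1 and RSL3 in MM1R cells was set against the same change in MM1S cells, and the difference between these changes is called the interaction. The 12 samples of this comparison, out of 18 in the series, were chosen by line and treatment: 3 untreated samples and 3 samples with Fer-1 and RSL3 in each line. MM1S is a glucocorticoid-sensitive human multiple myeloma line, and MM1R is its glucocorticoid-resistant counterpart of the same origin. Untreated cells received no agent, and no group of cells given only Fer-1 was analysed here. In the other groups, 2 µM Fer-1 was added for 2 h and 5 µM RSL3 then for 3 h. Replicates 1, 2 and 3 stand for passages 4, 6 and 7 of MM1R cells and passages 16, 22 and 23 of MM1S cells, so the lines share no passage and line and passage number cannot be told apart. All cells were grown in RPMI-1640 medium with serum. The 6 remaining samples, given RSL3 alone, entered the model to share its estimate of spread but not the comparison.

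RSL3 blocks GPX4, the selenoenzyme that reduces lipid hydroperoxides in membranes, and cells without its activity die by ferroptosis. Fer-1 (ferrostatin-1) traps lipid radicals and so stops the chain reaction downstream of GPX4. RSL3 also reacts with cysteine residues of other proteins, and electrophiles of this kind are known to switch on HSF1 and its chaperones, NRF2 and its antioxidant enzymes, and ATF4 with the amino acid stress genes. In myeloma cells, glucocorticoids act through the receptor encoded by NR3C1, which MM1R cells have largely lost.

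The 12 samples held between 17817681 and 19368343 counts, so depth was nearly even. Plasma cell markers, among them SDC1, TNFRSF17 and XBP1, summed to between 4285 and 5998 CPM (counts relative to the library total, scaled by TMM). T cell, monocyte and epithelial markers stayed at 33.3 CPM or less in sum, with 2 of the 7 T cell markers in the table, 1 of 8 monocyte markers and 2 of 8 epithelial markers at 0 in all 12 samples. Stromal markers, which include the widely expressed VIM, summed to between 172 and 656 CPM, with 4 of 8 at 0.

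The sample labelled MM1R Fer-1 + RSL3 replicate 2 stood apart from the rest, and it is described first because the results depend on it. NR3C1 was measured at 14.4, 13.8 and 14.9 CPM in untreated MM1R samples, and in untreated MM1S samples at 152, 96.6 and 89.9 CPM. After Fer-1 and RSL3, MM1R samples 1 to 3 had 16.9, 50.2 and 15.3 CPM, against 163, 93.1 and 93.4 CPM for MM1S. Replicate 2 thus lay between the levels of the lines, while the other 5 MM1R samples lay close together. To place the 12 samples, genes that separate the lines were taken from the RSL3 samples, which are not part of the comparison: at least 5 CPM in every sample of one line and at least 8 times the highest sample of the other. The 5 CPM minimum was chosen after the values were seen, since a minimum of 50 CPM left 2 genes. This gave 7 genes high in MM1S cells, among them MGST1 and SPIN3, and 14 genes high in MM1R cells, among them NES and CDKN2A. On a scale from 0% at the MM1R level to 100% at the MM1S level, replicate 2 had a median of 45.8% over the 7 genes and of 52.6% over the 14 genes. The other 5 MM1R samples had medians between -0.723% and -0.165% over the 7 genes and between -15.4% and 12.9% over the 14 genes. The 6 MM1S samples lay between 87.8% and 111% and between 98.8% and 100.4%. What gave this sample its MM1S signal was not tested, and all comparisons were therefore made with 18 samples and again with 17, without it. Below it is called the mixed sample for these levels alone, and the name states no cause.

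**Figure D1:**
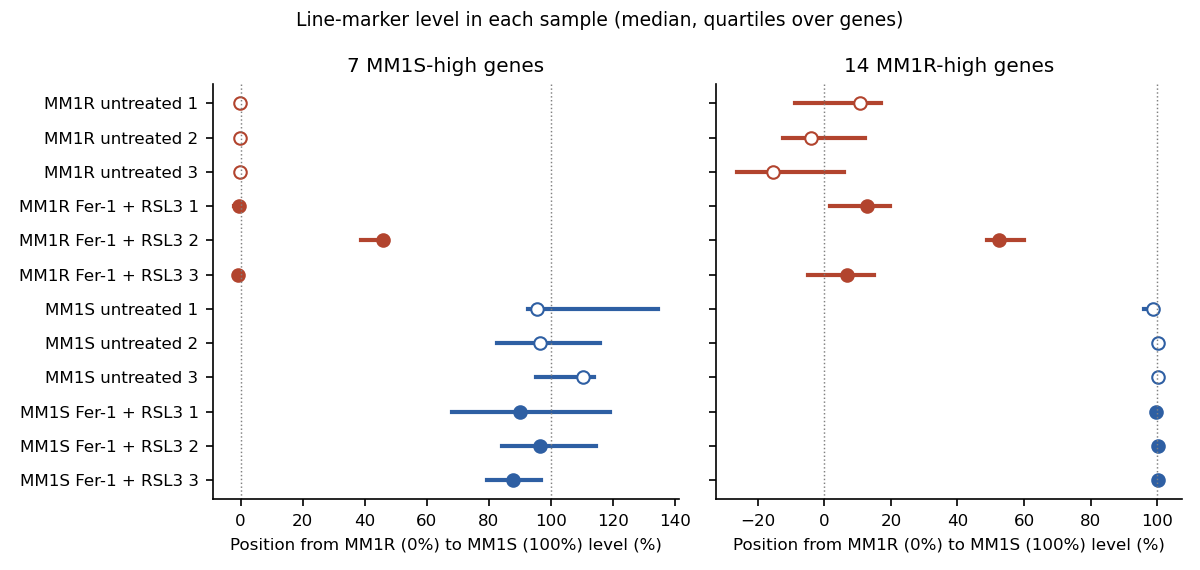
Position of each of the 12 samples between the MM1R level (0%) and the MM1S level (100%) of genes that separate the lines under RSL3, with 7 genes high in MM1S on the left and 14 genes high in MM1R on the right. Points are medians over genes, lines are quartiles, open points are untreated samples and filled points are samples with Fer-1 and RSL3. MM1R Fer-1 + RSL3 replicate 2 lies at 45.8% and 52.6%, apart from both lines.

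No gene passed the test for a difference in response between the lines when low counts were filtered and passages were not blocked. With 18 samples, 0 of 14281 genes (0%) were DEGs, which needs an FDR under 0.05 (Benjamini-Hochberg) and a log2 difference over 1 in size in edgeR's quasi-likelihood test, and 0 had an FDR under 0.05 at any size. An unadjusted p under 0.05 was reached by 384 genes, or 2.69%, of which 253 lay above 0 (larger in MM1R cells) and 131 below. With 17 samples, 0 of 14646 genes (0%) were called, and 196 genes, or 1.34%, had an unadjusted p under 0.05, 120 above 0 and 76 below. Exact p-values would put a share of 0.05 of the genes under 0.05 where no gene differs. Both shares were smaller, so the p-values of these fits erred on the large side. These fits leave differences between passages in the spread. DESeq2 also called 0 genes, with 397 at an unadjusted p under 0.05 with 18 samples and 167 with 17 samples. Of the genes with an unadjusted p under 0.05, 137 were shared by the fits, 247 had it only with 18 samples and 59 only with 17 samples. An interaction that misses the threshold does not show equal responses, so the intervals are given. The 95% interval of the interaction reached a median of 0.58 to either side on the log2 scale with 18 samples and of 0.63 with 17 samples. It lay wholly between -1 and 1 for 63.4% of the genes with 18 samples and for 60.6% with 17 samples. With the passage within a line as a block, 2 genes were called, SPIN3 at 7.61 and SERPINH1 at -3.08 (edgeR, adjusted p = 0.0484 for both), and 1150 genes had an unadjusted p under 0.05. Without the mixed sample, that fit called 0, with 640 genes at an unadjusted p under 0.05. With limma's voom and sample quality weights, 0 genes were called and 1613 had an unadjusted p under 0.05 (smallest adjusted p = 0.0893). The counts of 1150 and 1613 lay above a share of 0.05 of the 14281 genes, unlike the other counts given above. Both of those fits include the mixed sample, and these p-values did not err on the large side by that measure. With no filter on low counts, edgeR tested 27858 genes with 18 samples and 27665 with 17 samples, and called 29 and 7. MGST1, whose MM1R counts lie almost wholly in the mixed sample, had an interaction of 7.55 with the filter and 7.53 without it. Its adjusted p without the filter was 3.34e-29 in edgeR. A small adjusted p in that setting can thus rest on 1 sample, and its calls below are given as a dependence on the filter. Where an interval reached past -1 or 1, a 2-fold difference between the lines lay within it.

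The mixed sample raised the estimates of genes that MM1S cells express. Of the 253 genes with an unadjusted p under 0.05 and an interaction above 0 with 18 samples, 46 were more than 2-fold higher in MM1S than in MM1R cells under RSL3, against 330 of all 14281 genes (2.31%). With 17 samples, these were 6 of 120. The 7 genes high in MM1S cells had a median interaction of 2.55 with 18 samples, with 7 of 7 above 0, and of -0.19 with 17 samples, with 3 above and 4 below. MGST1, a membrane-bound glutathione transferase and peroxidase, had 1, 0 and 0 counts in untreated MM1R cells and 0, 203 and 0 counts with Fer-1 and RSL3. MM1S samples held 382, 463 and 477 counts without treatment and 250, 344 and 372 counts with Fer-1 and RSL3. Replicate 2 alone among the MM1R samples held more than 1 count of MGST1. The interaction estimate of MGST1 was 7.55 with 18 samples (edgeR, unadjusted p = 0.0032, adjusted p = 1.00) and -1.48 with 17 samples (unadjusted p = 0.36), and since 1 arm is at or near 0 these values depend on the prior count and bound nothing. NR3C1 itself moved from an interaction of 0.89 ± 0.69 (SE) to 0.12.

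SPIN3, a member of the spindlin family of histone readers, was the only one of these genes among the leading genes of both fits. It had 0 counts in all 3 untreated MM1R samples and 5, 70 and 2 counts with Fer-1 and RSL3, against 138 to 173 counts in each of the 6 MM1S samples. The highest MM1R sample was again replicate 2. The 17-sample estimate of 4.83 (edgeR, unadjusted p = 0.00041, adjusted p = 1.00) therefore rests on 5 and 2 counts.

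SERPINH1, which encodes the collagen chaperone HSP47, was called for the interaction with the passage block. In MM1R cells, its counts were 93, 65 and 74 without treatment and 80, 69 and 91 with Fer-1 and RSL3. MM1S samples held 23, 3 and 1 counts and then 154, 27 and 19. Each MM1S passage had more counts after treatment, although the groups overlapped, and the MM1R groups overlapped as well. The log2 fold change of SERPINH1 was 2.89 in MM1S cells (adjusted p = 0.138, edgeR) and -0.0073 in MM1R cells, and neither passed. The interaction was -2.90 with 18 samples and -2.80 with 17 samples (edgeR, unadjusted p = 0.051 and 0.083), and the passage block without the mixed sample gave -3.14 (adjusted p = 0.254). With no filter on low counts, SERPINH1 was called with 18 and with 17 samples (edgeR, adjusted p = 9.21e-06 and 0.000143). The gene was singled out after its values were seen.

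Each line on its own did change. In MM1R cells, 309 genes (2.16% of those tested) were DEGs between Fer-1 and RSL3 and no treatment, of which 250 were higher (1.75%) and 59 lower (0.413%). In MM1S cells, 195 genes (1.37%) were DEGs, of which 134 were higher (0.938%) and 61 lower (0.427%). Without the mixed sample, the counts were 217 (1.48%) in MM1R cells and 187 (1.28%) in MM1S cells. Of the 309 MM1R DEGs, 182 were also DEGs with 17 samples. The 127 that were not included 20 genes more than 2-fold higher in MM1S than in MM1R cells under RSL3, against 10 of the 182. With the passage within a line as a block, the counts rose to 521 and 383. Single samples also moved these counts: there were 189 MM1R DEGs without MM1R untreated replicate 2, and in MM1S cells 128 without untreated replicate 1 and 115 without Fer-1 + RSL3 replicate 1, which also lowered the genes called in both lines from 120 to 77. Leaving out MM1S RSL3 replicate 1, which enters only the shared spread, raised the counts to 394 in MM1R cells, 291 in MM1S cells and 167 in both. That sample had a TMM factor of 0.864 and 4321 CPM of the chaperone gene HSPA6, against 64.5 and 82.8 CPM in the other MM1S samples with RSL3. P-values measure the spread between passages of a line.

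The genes called in both lines were 120 (0.84%), and all 120 moved in the same direction, 99 up and 21 down. With 17 samples there were 104, of which 95 were among the 120, and with the passage block there were 211. The MM1R and MM1S comparisons share no sample. The interaction of the 120 genes had a median of -0.0028 on the log2 scale, with quartiles of -0.20 and 0.24. The change was the larger of the lines in MM1R for 58 genes and in MM1S for 62. Only OSGIN1 had an unadjusted interaction p under 0.05. The intervals of these strongly induced genes, which hold the spread of the RSL3 samples too, were wide, reaching a median of 0.90 to either side. They lay between -1 and 1 for 46 of the 120 and between -2 and 2 for 102. A further 189 genes were DEGs only in MM1R cells and 75 only in MM1S cells, but a call in one line and not in the other is no test of a difference. Of the 309 MM1R DEGs, 298 had the same sign in MM1S cells, and of the 195 MM1S DEGs, 194 had the same sign in MM1R cells. Over all genes tested, 73.8% had the same sign, and the log2 fold changes of the lines had a Pearson r of 0.66 and a Spearman rho of 0.65 across genes, which are not independent replicates.

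**Figure D2:**
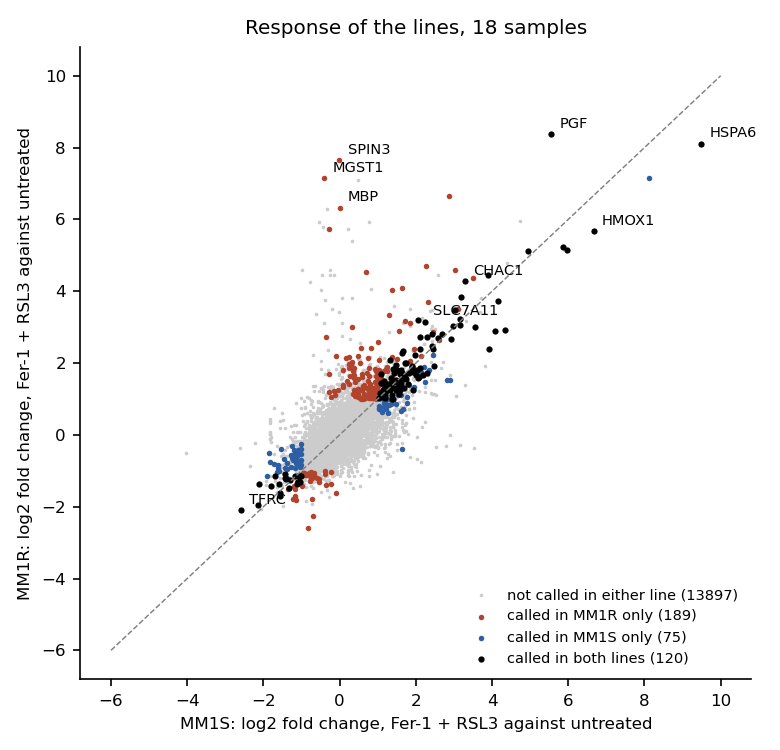
Log2 fold change of Fer-1 and RSL3 against untreated in MM1S cells (x axis) and MM1R cells (y axis), 1 point per tested gene, 18 samples. Black points are the 120 genes called in both lines and lie along the dashed line of equal change, while MGST1, MBP and SPIN3, which the mixed sample raised, lie high up near 0 on the x axis.

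Heat shock genes rose in both lines. Of 21 chaperone genes tested, 10 rose in MM1R cells, 8 rose in MM1S cells, 8 in both, and 0 fell. Over all genes tested, 1.75% rose in MM1R cells, 0.938% rose in MM1S cells and 0.84% were called in both. With 17 samples, 5 of the 10 were still called in MM1R cells, and the MM1S count was again 8. Their median log2 fold change was 0.92 in MM1R cells and 1.14 in MM1S cells, against 0.015 and -0.0017 over all genes, and 0 of the 21 had an unadjusted interaction p under 0.05 with 18 or 17 samples. SERPINH1, called with the passage block and with no filter, is 1 of these 21. The small heat shock protein gene HSPB1 was called with no filter and 17 samples (-1.22, adjusted p = 0.000914, edgeR). With the filter, HSPB1 had the same estimate and an unadjusted p of 0.27 in edgeR. DNAJB1, the co-chaperone that hands substrates to HSP70, stood at 142, 179 and 164 CPM in untreated MM1R cells and at 1550.5, 2210 and 2607 CPM with Fer-1 and RSL3. For MM1S, the untreated values were 184, 191 and 147 CPM and the treated values 3547, 3130 and 2546 CPM. Treated and untreated samples did not overlap in either line. The within-passage log2 changes were 3.45, 3.63 and 3.99 in MM1R and 4.27, 4.04 and 4.11 in MM1S cells, without overlap, as for 15.7% of all genes tested. The log2 rise of DNAJB1 was 3.72 ± 0.73 (SE) for MM1R and 4.14 ± 0.74 for MM1S (adjusted p = 0.0056 and 0.0041, edgeR's quasi-likelihood test), and the interaction was -0.43 with a 95% interval from -2.38 to 1.52. HSPA6, the strictly inducible HSP70 gene, was near 1 CPM without treatment and reached 301, 321 and 550 CPM in MM1R cells and 1256, 522 and 345 CPM in MM1S cells. Its treated samples overlapped between the lines, and the interaction of -1.38 had an interval from -5.93 to 3.18. BAG3, the co-chaperone of HSP70 in selective autophagy, rose by 3.01 and 3.55 on the log2 scale. HSP90AA1, the inducible HSP90, rose by 2.48 and 2.43, and its MM1R call was lost with 17 samples (adjusted p = 0.052, edgeR). HSPA1B has 3 tested entries of its own outside this list, near-identical copies among which reads are uncertain, and they rose by between 4.94 and 5.96 on the log2 scale.

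The heat shock promoters are shown because their genes moved together in both lines. The sequences are the 250 bases before the start site from RefSeq (build GRCh38.p14), 5′ to 3′ on the strand of the gene. Capitals mark GAANNTTC, the inverted repeat that HSF1 trimers bind, which reads the same on both strands. The windows are HSPA6 (chr1:161524290-161524539, plus strand) and CHORDC1 (chr11:90223050-90223299, minus strand), an HSP90 co-chaperone that rose by 1.80 and 2.03 on the log2 scale.
HSPA6: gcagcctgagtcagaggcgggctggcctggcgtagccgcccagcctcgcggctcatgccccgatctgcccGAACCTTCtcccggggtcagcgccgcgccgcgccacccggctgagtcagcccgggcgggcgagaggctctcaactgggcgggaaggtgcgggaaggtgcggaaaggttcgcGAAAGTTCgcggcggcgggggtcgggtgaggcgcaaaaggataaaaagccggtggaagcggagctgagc
CHORDC1: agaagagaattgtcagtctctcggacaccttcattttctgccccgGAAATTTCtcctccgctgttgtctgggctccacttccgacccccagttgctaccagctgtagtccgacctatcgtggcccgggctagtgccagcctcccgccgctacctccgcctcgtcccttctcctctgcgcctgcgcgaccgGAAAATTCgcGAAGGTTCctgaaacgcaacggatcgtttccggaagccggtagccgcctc
The letters were found in 10 of 22 promoters of the chaperone list (45.5%), in 6 of 67 of the genes that rose in both lines (8.96%, with 67 of the 99 matched by symbol), in 433 of 10502 promoters of tested genes (4.12%), and in 1597 of all 27305 promoters (5.85%). HSPA6 held 2 matches, 180 and 69 bases before the start, and CHORDC1 held 3. A match is a description of the letters and not of a bound site.

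ATF4 targets rose in both lines as well. Of 22 tested members of the integrated stress response, 12 rose in MM1R cells, 8 in MM1S cells and 7 in both (10, 7 and 6 with 17 samples). The shares over all genes with 18 samples were 1.75%, 0.938% and 0.84%. Of the 22, 0 fell and 0 had an unadjusted interaction p under 0.05. Their median log2 fold change was 1.43 in MM1R and 1.07 in MM1S cells. CHAC1, which degrades glutathione, stood at 8.94, 12.9 and 8.86 CPM in untreated MM1R cells and at 197, 135 and 262 CPM with Fer-1 and RSL3. The MM1S line went from 4.66, 58.7 and 16 CPM to 215, 308 and 253 CPM. All treated samples lay above all untreated ones. The rise of CHAC1 was 4.28 ± 0.61 (SE, log2) and 3.29 ± 0.58 (adjusted p = 0.00084 and 0.0037, edgeR), with an interaction of 0.98 from -0.64 to 2.61. With no filter on low counts, the interaction of CHAC1 was called with 17 samples (1.19, adjusted p = 0.00118, edgeR) and not with 18. With the filter, the estimate with 17 samples was 1.20 (edgeR, unadjusted p = 0.16). DDIT3, which encodes the stress factor CHOP, rose by 2.80 and 2.69. ATF3, a repressor of the same pathway, rose by 3.07 and 3.15. DDIT4, an inhibitor of mTORC1, rose by 2.66 and 2.93 from a higher untreated level in MM1R cells (29.4, 33.6 and 38 CPM) than in MM1S cells (9.01, 14.5 and 8.63 CPM). PMAIP1, a BH3-only activator of apoptosis, rose by 2.09 and 1.33, and its MM1S call was lost with 17 samples (adjusted p = 0.052, edgeR).

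For these genes, capitals mark TGATGNAA on either strand, the composite site of CEBP and ATF factors, in the promoters of CHAC1 (chr15:40953221-40953470, plus strand) and ATF3 (chr1:212565157-212565406, plus strand).
CHAC1: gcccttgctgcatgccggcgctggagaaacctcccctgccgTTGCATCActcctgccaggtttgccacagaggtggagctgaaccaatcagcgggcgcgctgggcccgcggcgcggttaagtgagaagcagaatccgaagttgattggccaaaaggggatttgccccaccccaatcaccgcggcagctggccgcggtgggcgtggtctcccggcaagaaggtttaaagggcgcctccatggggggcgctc
ATF3: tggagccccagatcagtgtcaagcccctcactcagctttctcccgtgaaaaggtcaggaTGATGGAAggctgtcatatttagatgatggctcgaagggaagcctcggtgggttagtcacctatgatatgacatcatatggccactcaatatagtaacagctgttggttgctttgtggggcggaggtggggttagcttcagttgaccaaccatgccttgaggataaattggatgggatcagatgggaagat
The match lies 209 bases before the start of CHAC1 and 191 bases before that of ATF3. It was found in 3 of 21 promoters of the list (14.3%), in 2 of 67 of the genes that rose in both lines (2.99%), in 159 of 10502 promoters of tested genes (1.51%), and in 870 of all 27305 promoters (3.19%). TGACNNNGC, the antioxidant response element, was found in 4 of 18 promoters of NRF2 targets (22.2%), in 7 of the 67 (10.4%), in 12.5% of the promoters of tested genes and in 11% of all.

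NRF2 targets rose too, with 7 of 23 called in MM1R cells, 5 in MM1S cells, and all 5 in both (5, 5 and 5 with 17 samples). With 18 samples, 1.75% of all genes were higher in MM1R cells, 0.938% in MM1S cells, and 0.84% were called in both. HMOX1, which breaks down heme, stood at 13.5, 17.8 and 25.4 CPM in untreated MM1R cells and at 748, 685 and 1463 CPM with Fer-1 and RSL3. In the MM1S line, 10.6, 9.09 and 13.2 CPM became 1220, 1142 and 975 CPM. The treated samples of the lines overlapped, and no treated sample came near an untreated one. The within-passage log2 changes of HMOX1 did not overlap, at 5.78, 5.26 and 5.84 in MM1R and 6.84, 6.96 and 6.20 in MM1S cells. Such a lack of overlap was found for 15.7% of all genes tested. The log2 rise was 5.67 ± 0.82 (SE) for MM1R and 6.67 ± 0.87 for MM1S (adjusted p = 0.00094 and 0.00049, edgeR), and the interaction was -0.99 from -3.06 to 1.08. SLC7A11, the cystine importer that feeds glutathione synthesis, stood at 9.15, 11.4 and 6.2 CPM in untreated MM1R cells and at 73.1, 73.7 and 91.7 CPM with Fer-1 and RSL3. MM1S samples were at 7.36, 30.4 and 16.5 CPM untreated and at 92.9, 73.2 and 90 CPM treated. Both lines reached the same range. The interaction of SLC7A11 was 0.91 from -0.10 to 1.92 (edgeR, unadjusted p = 0.075). OSGIN1, an oxidative stress growth inhibitor, rose from 1.3, 1.42 and 1.16 CPM to 11.7, 7.7 and 9.89 CPM in MM1R cells and from 0.881, 0.522 and 0.452 CPM to 15.5, 13.2 and 9.12 CPM in MM1S cells. Its interaction of -1.42, from -2.77 to -0.08, had an unadjusted p of 0.040 and an adjusted p of 1.00 in edgeR, and -1.28 from -2.71 to 0.15 with 17 samples. GCLM, a subunit of the enzyme that starts glutathione synthesis, rose by 1.42 and 1.26. FTL and FTH1, the ferritin chains, were not called in either line, with FTL at 0.62 and 1.14 and FTH1 at 0.15 and 0.40 on the log2 scale, and reads of their many pseudogenes make both uncertain.

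**Figure D3:**
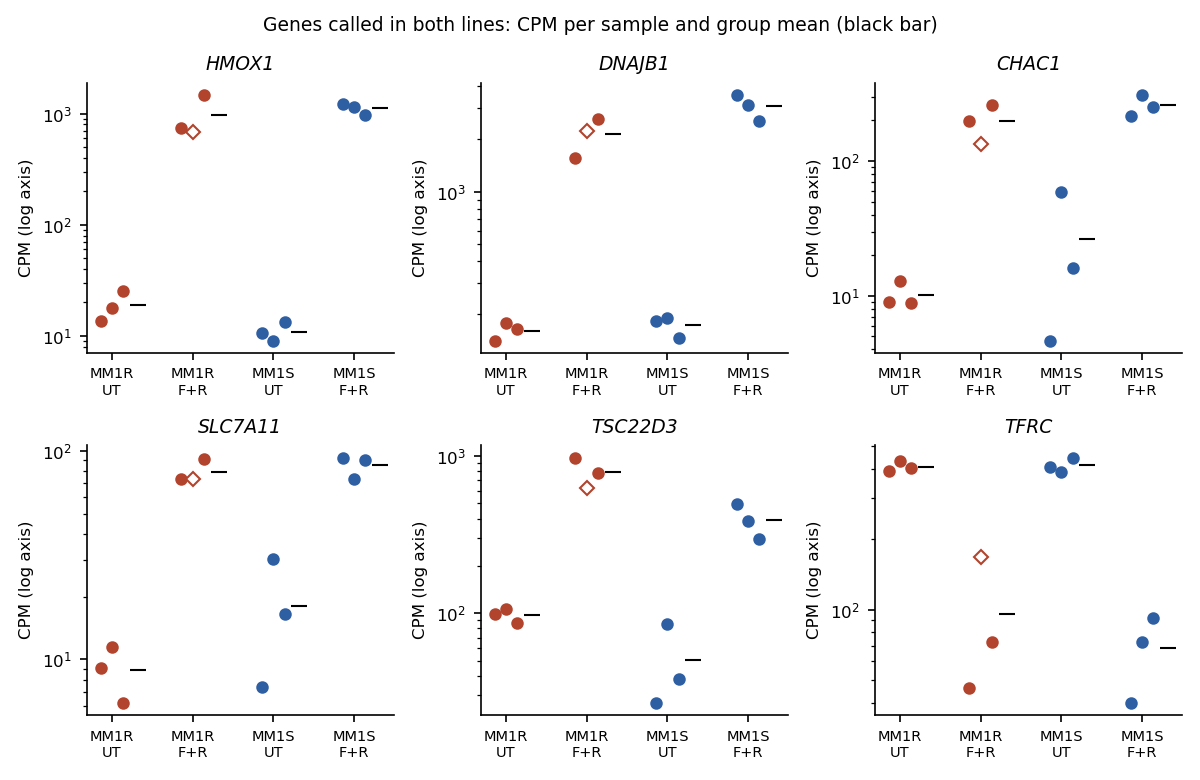
CPM on a log axis in each sample for 6 genes called in both lines: untreated (UT) and Fer-1 with RSL3 (F+R) in MM1R (red) and MM1S (blue) cells. Black bars are group means, and the open diamond is MM1R Fer-1 + RSL3 replicate 2. HMOX1, DNAJB1, CHAC1, SLC7A11 and TSC22D3 rose and TFRC fell in both lines.

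The lines differ in their glucocorticoid receptor, so a list of the receptor and its target genes was looked at apart. Besides targets, the list holds among others the receptor gene NR3C1, HSP90AA1 and FKBP4 of the chaperone list, and the coactivator genes NCOA1 and NCOA2. Of 17 genes tested, 3 rose in MM1R cells, and the same 3 rose in MM1S cells: TSC22D3, TXNIP and HSP90AA1. All genes tested gave shares of 1.75% in MM1R cells, 0.938% in MM1S cells and 0.84% in both. HSP90AA1 is a chaperone gene that was already counted among the 21 above. With 17 samples, HSP90AA1 was no longer called in MM1R cells. TSC22D3, which encodes the glucocorticoid-induced leucine zipper, stood at 98.3, 106 and 86 CPM in untreated MM1R cells and at 977, 625 and 779 CPM with Fer-1 and RSL3. For MM1S, the untreated values were 26.9, 85.7 and 38 CPM and the treated values 496, 384 and 296 CPM. Each treated sample was above each untreated one, and the treated MM1R samples were above the treated MM1S samples. The rise of TSC22D3 was 3.04 ± 0.72 (SE, log2) and 2.97 ± 0.72 (adjusted p = 0.015 and 0.026, edgeR), and the interaction was 0.07 from -1.93 to 2.08. TXNIP, a thioredoxin-binding protein, rose by 1.22 and 1.21. NCOA2, a coactivator of the receptor, had an interaction of 0.58 (edgeR, unadjusted p = 0.028) and of 0.56 with 17 samples. ZBTB16, a zinc finger repressor, had an interaction of 4.53 that fell to 2.66 without the mixed sample, and its untreated MM1R samples held 0, 1 and 0 counts. These were the 2 of 17 with an unadjusted p under 0.05, beside 2.69% of all genes.

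Genes that fell in both lines included TFRC, the transferrin receptor, which brings iron into the cell. TFRC stood at 389, 431 and 403 CPM in untreated MM1R cells and at 46.2, 167 and 72.7 CPM with Fer-1 and RSL3. The MM1S line went from 405, 388 and 446 CPM to 40, 72.5 and 92.4 CPM. Treated samples were below all untreated samples, and the mixed sample was the highest of the treated ones. The log2 change was -2.10 ± 0.43 (SE) for MM1R and -2.60 ± 0.44 for MM1S (adjusted p = 0.0070 and 0.0031, edgeR). The interaction of TFRC was 0.50 from -0.74 to 1.74 with 18 samples and -0.18 from -1.28 to 0.91 with 17 samples. CCR2, a chemokine receptor, changed by -1.96 and -2.15, and ZNF703, a transcriptional repressor, by -1.70 and -1.56. SOX2, a stem cell transcription factor, changed by -1.37 and -2.13, with an interaction of 0.76 from -0.07 to 1.58. SPRY1, an inhibitor of receptor tyrosine kinase signalling, changed by -1.42 and -1.79, and its MM1R call was lost with 17 samples (adjusted p = 0.083, edgeR).

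No cholesterol synthesis gene passed the test for a difference between the lines. Of 24 genes tested, 19 had an interaction above 0, that is, a lower log2 fold change in MM1S cells, beside 7413 of all 14281 genes, with a median of 0.21 (0.17 with 17 samples) beside 0.014 over all genes (0.0046). The calls were 0 of 24, and 3 of the 24 had an unadjusted p under 0.05 (2 with 17 samples), STARD4 and MSMO1 among the 3. In MM1S cells, 2 genes fell, MSMO1 among them, and in MM1R cells 0 did, beside 0.427% and 0.413% of all genes. STARD4, a sterol carrier protein, stood at 16.2, 12.9 and 8.05 CPM in untreated MM1R cells and at 12, 16.3 and 10.7 CPM with Fer-1 and RSL3. In the MM1S line, 20.3, 20.8 and 21.7 CPM became 11.3, 11.9 and 12.5 CPM. The MM1R groups overlapped and the MM1S groups did not. The interaction of STARD4 was 0.88 from 0.30 to 1.47 (edgeR, unadjusted p = 0.0054, adjusted p = 1.00) and 0.69 without the mixed sample. MSMO1, a sterol methyl oxidase, went from 139, 174 and 184 CPM to 144, 130 and 96.7 CPM in MM1R cells and from 116, 158 and 165 CPM to 55.4, 73.5 and 78.6 CPM in MM1S cells. The MM1R groups overlapped and the MM1S groups did not. MSMO1 was at -0.42 in MM1R cells and fell by 1.08 on the log2 scale in MM1S cells (adjusted p = 0.19 and 0.0046, edgeR), with an interaction of 0.65 from 0.08 to 1.23.

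The other lists held 0 to 2 called genes in each line and direction. The 7 genes tested of the metallothionein list, which holds the zinc exporter SLC30A1, were not called in either line, and the metal-binding MT2A went from 0.52, 1.91 and 1.68 CPM to 6.72, 3.22 and 6.45 CPM in MM1R cells and from 1.66, 0.993 and 1.41 CPM to 5.44, 5.9 and 2.73 CPM in MM1S cells. Of 21 immediate early genes, 1 rose in MM1R cells (JUN, an AP-1 subunit, lost with 17 samples) and 0 in MM1S cells, beside 1.75% and 0.938% of all genes. JUN was 2.60 higher on the log2 scale in MM1S cells against 2.65 in MM1R cells (adjusted p = 0.066 and 0.042, edgeR). NR4A1, a nuclear receptor gene of this list that the study names, had an interaction of -1.90 with 18 samples and -1.72 with 17 samples (edgeR, unadjusted p = 0.41 and 0.49). With no filter on low counts, NR4A1 was called with 18 and with 17 samples (-1.91 and -1.72, adjusted p = 3.65e-05 and 2.88e-06, edgeR). The estimates were nearly those of the filtered fits, and only the p-values moved, so the call depends on the filter. Of 18 phosphatases and feedback inhibitors of kinases, 2 fell in MM1R cells (0 with 17 samples) and 1 in MM1S cells, beside 0.413% and 0.427% of all genes. Of 23 apoptosis genes, 2 rose in MM1R cells (PMAIP1 and the BH3-only HRK, the latter lost with 17 samples) and 1 in MM1S cells (PMAIP1), beside 1.75% and 0.938% of all genes that were higher. In each of the NF-kappa-B, cell cycle, lipid peroxidation and plasma cell lists, at most 1 gene was called in a line: CD83, a B cell activation marker, rose in MM1R cells (lost with 17 samples, adjusted p = 0.061, edgeR) and TFRC fell in both. CD83 changed by 1.68 in MM1R cells (1.73 with 17 samples) and by -0.28 in MM1S cells. Its interaction was 1.96 with 18 samples and 2.01 with 17 samples (edgeR, unadjusted p = 0.0063 and 0.0091), not called in either fit. It was 1 of 13 genes tested of its list with an unadjusted p under 0.05, beside 2.69% of all genes with 18 samples. GPX4, the target of RSL3, changed by -0.33 in MM1R cells and by -0.026 in MM1S cells, and was not called in either.

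The genes with the smallest interaction p are given as the candidates that the data hold, none of them called in the fits with 18 and 17 samples above. With no filter on low counts, FBXO30 was called with 18 and with 17 samples (edgeR, adjusted p = 2.65e-06 and 3.96e-06), and SPIN3 and MGST1 with 18 samples. The rule took the 8 smallest p values in each direction in each fit, and 7 genes led both fits: ATXN7L1, SPIN3, FBXO30 and CCDC125 above 0, and PRKCD, UBALD1 and CCDC96 below. FBXO30 (chr6:146114638-146135931, hg19), an F-box subunit of a ubiquitin ligase, stood at 21.9, 17.9 and 14.1 CPM in untreated MM1R cells and at 55.7, 59.4 and 81.6 CPM with Fer-1 and RSL3. For MM1S, the untreated values were 18.4, 23.8 and 24.7 CPM and the treated values 29.9, 27.3 and 29.9 CPM. The treated MM1R samples were above all others, and the mixed sample lay within their range. FBXO30 rose by 1.86 ± 0.29 (SE, log2) in MM1R cells and was 0.38 ± 0.29 higher in MM1S cells, and the interaction was 1.48 from 0.63 to 2.34 with 18 samples and 1.55 from 0.62 to 2.48 with 17 samples (edgeR, unadjusted p = 0.0020 and 0.0027, adjusted p = 1.00 in both). PRKCD (chr3:53190025-53226733, hg19), protein kinase C delta, stood at 77.4, 81.2 and 84.3 CPM in untreated MM1R cells and at 45, 31.1 and 38.7 CPM with Fer-1 and RSL3. The MM1S line went from 28.3, 31.9 and 30.5 CPM to 19.9, 26.9 and 23.1 CPM. Both lines moved down without overlap of their groups, from a higher level in MM1R cells. The change of PRKCD was -1.08 ± 0.14 and -0.37 ± 0.14 (SE, log2), with an interaction of -0.70 from -1.12 to -0.29 (edgeR, unadjusted p = 0.0022) and of -0.58 with 17 samples.

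UBALD1, a protein with a ubiquitin-associated fold, stood at 25.7, 21.8 and 24 CPM in untreated MM1R cells and at 23.1, 20.8 and 22.3 CPM with Fer-1 and RSL3. In the MM1S line, 22, 19.2 and 16.9 CPM became 31.5, 28.9 and 24.8 CPM. The MM1S groups did not overlap and the MM1R groups did, and the interaction was -0.67 from -1.02 to -0.31. WIZ, a zinc finger partner of the H3K9 methyltransferases, went from 86.8, 80 and 78.1 CPM to 54.1, 49.5 and 57.1 CPM in MM1R cells and from 75.9, 64.9 and 68.2 CPM to 61.6, 70.6 and 63.4 CPM in MM1S cells. Its groups were apart in MM1R cells and overlapped in MM1S cells, with an interaction of -0.51 from -0.84 to -0.18. PIM1, a survival kinase, went from 83.8, 67.3 and 85.5 CPM to 107, 106 and 113 CPM in MM1R cells, and from 112, 109 and 136 CPM to 129, 86.5 and 96.7 CPM in MM1S cells. The MM1R groups were apart, the MM1S groups overlapped, and the interaction of PIM1 was 0.66 from 0.25 to 1.07. HES1, a transcriptional repressor downstream of Notch, changed by -0.39 in MM1R cells and by -1.54 in MM1S cells, with an interaction of 1.14 from 0.28 to 2.01. ENPP1, which hydrolyses extracellular nucleotides, changed by 1.15 and 0.36, with an interaction of 0.79 that was 0.61 without the mixed sample. ATXN7L1, CCDC125, ZNF727, CCKBR and CCDC96 were below 4 CPM in every sample, as were MRVI1 and PTPRR of the 17-sample fit. For 2237 of the 14281 genes (15.7%), the 3 within-passage changes in MM1R cells did not overlap the 3 in MM1S cells, so the lack of overlap that most of these leading genes show is common.

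**Figure D4:**
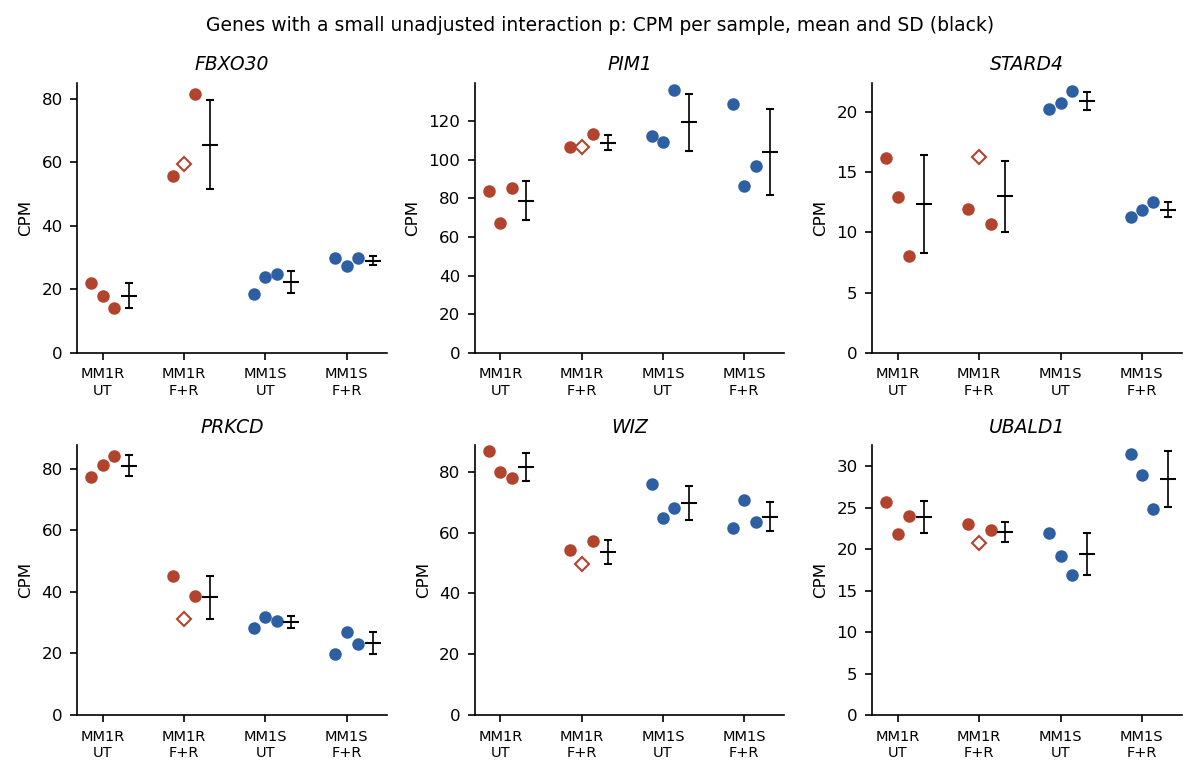
CPM in each sample, from 0, for 6 genes with a small unadjusted interaction p: untreated (UT) and Fer-1 with RSL3 (F+R) in MM1R (red) and MM1S (blue) cells, with the mean and SD of 3 samples in black. The open diamond is MM1R Fer-1 + RSL3 replicate 2, and FBXO30 lies at 55.7 to 81.6 CPM in treated MM1R cells against 27.3 to 29.9 CPM in treated MM1S cells.

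**Figure D5:**
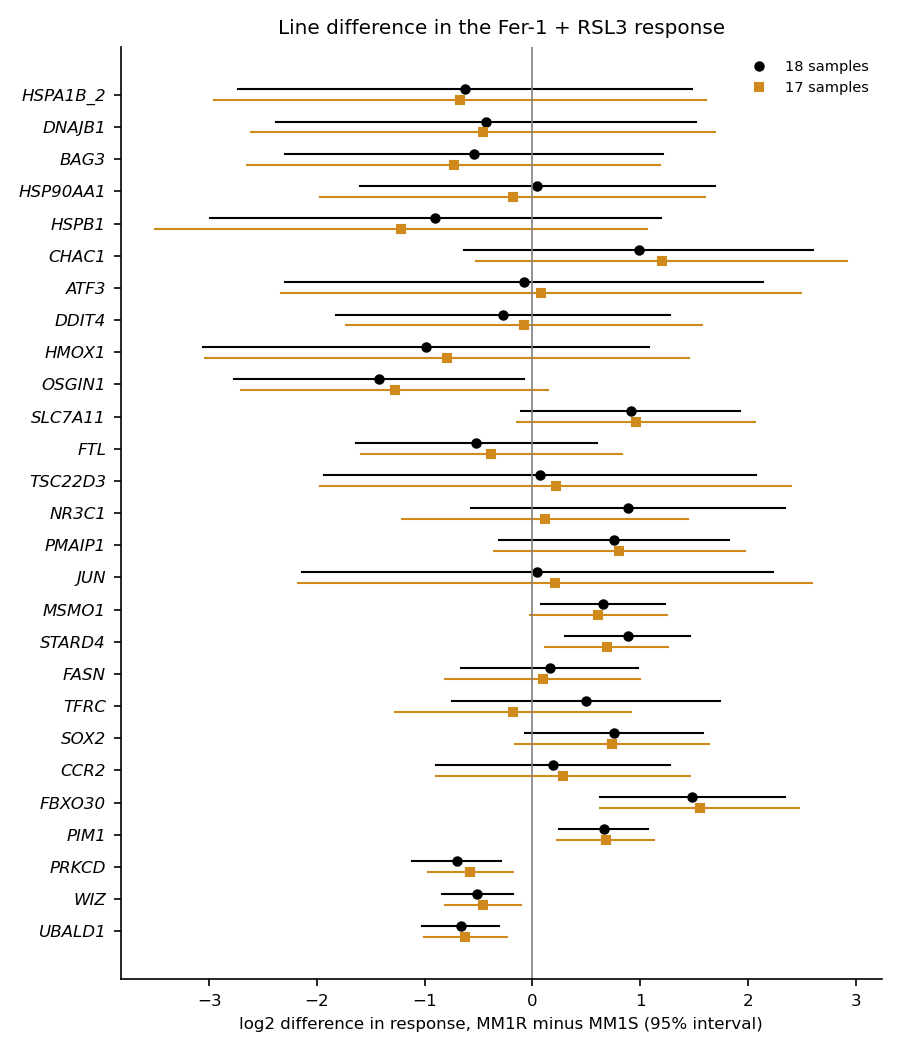
Interaction (log2 change in MM1R minus log2 change in MM1S) with its 95% interval for named genes, with 18 samples (black) and with 17 samples (orange). The intervals of the strongly induced genes such as HMOX1 and DNAJB1 span 0 and are wider than those of WIZ or UBALD1, and TFRC and NR3C1 lie closer to 0 without the mixed sample.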

How the data were processed

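RNA was extracted from 18 MM1R and MM1S samples and sequenced as total RNA. Per the labels, the authors aligned reads to hg19 with STAR 2.7.3a after FastQC 0.11.5. The raw table holds the counts per gene as the authors deposited them, and the second table holds a signal, the counts the authors divided by a size factor for each sample. The counting tool, annotation and strand setting were not given in the sources used here, so overlapping and antisense genes are uncertain. Groups came from the titles, and passages from the descriptions.

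Of 43735 genes, 14281 passed filterByExpr (minimum count 10). Counts were scaled with TMM and fitted with edgeR 4.0.16 (glmQLFit, glmQLFTest; R 4.3.3) with 6 group means over 18 samples, and the interaction was tested as a contrast with Benjamini-Hochberg adjustment. The fit was repeated without MM1R Fer-1 + RSL3 replicate 2. Alternatives used DESeq2 1.42.0, limma 3.58.1 with voom weights or the normalized signal, other scalings and filters, only the 12 samples, and each sample left out. Scripts were tested on simulated data. CPM used TMM library sizes. Same-numbered samples of a line share a passage, and their deviations from the group means correlated at 0.25, 0.034 and 0.36 in MM1R and at 0.68, 0.36 and 0.51 in MM1S.

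The genes named were the 8 with the smallest interaction p per direction and fit, the 3 with the largest change of each list, those the study names and the 5 with the largest mean rise and fall in both lines. Other list members were added after their values were seen. The samples and gene lists were chosen with earlier results of these data known. Promoters are the 250 bases before RefSeq start sites, matched by symbol. Some named genes are not reported here.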

Additional observations from a re-analysis of the deposited data

Results flagged for a closer look

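With the passage as a block, the interaction of 2 genes differed between the lines by the test of the difference itself. SPIN3 had an interaction of 7.61 ± 0.93 (SE, log2) and SERPINH1 of -3.08 ± 0.43 (adjusted p = 0.0484 for both, edgeR's quasi-likelihood test). Neither passed the threshold without MM1R Fer-1 + RSL3 replicate 2, where SPIN3 stood at 4.47 (adjusted p = 0.948) and SERPINH1 at -3.14 (adjusted p = 0.254). Both rest on groups with 0 to 5 counts in some samples, and the part of the mixed sample in SPIN3 was not tested beyond leaving it out. Dixon's test for outlying values was not run, since groups held 3 samples.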

How the results depend on the processing

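The interaction gave 0 DEGs in edgeR, in DESeq2 and with each of the 18 samples left out (0 to 0, smallest adjusted p 0.795), but 29 with no filter on low counts and 2 with the passage as a replicate block. Without the mixed sample and with no filter, a setting added after the data were seen, it gave 7. They were NR4A1, FBXO30, SERPINH1, HIST1H1C, HSPB1, CHAC1 and AHNAK. The estimates of NR4A1, HSPB1 and CHAC1 hardly moved from those with the filter, while their p-values did. MM1R DEGs numbered 695 with voom weights, 502 with no filter, 521 with the replicate block, 1317 with no fold threshold and 815 at an FDR under 0.5. MM1S DEGs numbered 388, 378, 383, 659 and 651 in the same order, and 396 with the replicate block without the mixed sample. DEGs of both lines numbered 200, 222, 211, 447 and 332, and 196 with that last block. With 1 sample left out, the counts ranged from 189 to 394 in MM1R, from 115 to 291 in MM1S and from 77 to 167 in both. The line markers were 21 at a minimum of 5 CPM and 2 at 50 CPM. The interaction of MGST1 reversed without MM1R Fer-1 + RSL3 replicate 2 (-1.48 in edgeR, -1.91 with the block, -0.62 in DESeq2, -1.49 with no filter) and reached 9.44 without MM1R untreated replicate 1. None of the 82 named genes was called in the main fits, so a gene that stayed uncalled counted as the same. Changes of sign at a larger unadjusted p counted as the same too. By this rule, 2416 of 2434 pairs of gene and setting were the same, and 14 became called. A further 4, all of MGST1, reversed in sign from an unadjusted p under 0.05 and stayed uncalled. The sign of the interaction changed under at least 1 setting for 27 of the 82 genes. Without the mixed sample, MARC1 went from 0.63 to -2.61 (edgeR, unadjusted p = 0.0074) and TFRC from 0.50 to -0.18. The cause of these moves was not tested. Whether more counts or more passages would narrow the intervals was not tested.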
